A study of Mus musculus with 14 samples.

Results

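Core cardiac transcription factors are the DNA-binding proteins that build the heart muscle program in the embryo and keep it running in the adult myocyte. The 10 genes described here were Gata4, Gata6, Nkx2-5, Tbx5, Tbx20, Hand2, Mef2a, Mef2c, Mef2d and Irx4, chosen by name. Each had 1 row among the 49315 genes of the count table, and all 10 were among the 15292 genes with enough reads for a test. RNA came from the left ventricle of male mice, operated at 10 to 12 weeks of age and examined 5 weeks later by sequencing of poly(A)-selected RNA. WT mice carried the normal Hcn4 gene, and HCN4F mice carried a gain-of-function knock-in that exchanges a tyrosine for a phenylalanine in exon 4 of Hcn4, the main pacemaker channel gene of the sinus node. The knock-in is in the germline and is not limited to 1 cell type. Mice of both genotypes underwent either a Sham operation or transverse aortic constriction (TAC), which narrows the aortic arch and loads the left ventricle with pressure. The groups were WT-Sham (n = 4), HCN4F-Sham (n = 4), WT-TAC (n = 2, replicates 2 and 3) and HCN4F-TAC (n = 4). Further WT-TAC samples that the study describes were not analysed here.

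These factors belong to 5 families of DNA-binding proteins. GATA4 and GATA6 are zinc finger proteins that bind GATA sites. NKX2-5 and IRX4 carry a homeodomain, TBX5 and TBX20 a T-box, HAND2 a basic helix-loop-helix domain, and the MEF2 proteins a MADS box. GATA4, NKX2-5, TBX5 and MEF2C occupy shared enhancers of contractile and natriuretic peptide genes, where they act together with serum response factor and TEAD1. In the pressure-loaded ventricle GATA4 and the MEF2 proteins are known as endpoints of hypertrophic signalling, much of which acts on the protein, by phosphorylation of GATA4 and by release of MEF2 from class II histone deacetylases. Messenger RNA counts do not see that part of their regulation. IRX4 is a ventricle-specific factor, TBX5 is best known for the atria, the conduction system and the septum, HAND2 for the right ventricle and the epicardium-derived cells, and TBX20 is needed for contractile function in the adult heart.

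RefSeq promoter windows on GRCm38.p6, covering 250 bases before and 50 bases after an annotated start, were matched for 7 of the genes (Nkx2-5, Tbx20, Hand2, Mef2a, Mef2c, Mef2d and Irx4), 9 windows in all since Mef2c has 3. The DNA words searched, on both strands and with overlapping matches allowed, were the GATA words AGATAA and TGATAA, the NKX2-5 word TNAAGTG, the T-box word AGGTGT, the MEF2 word, CTA followed after any 4 bases by TAG, and the TEAD word CATTCC. The window of Tbx20 is shown because its transcript had the lowest adjusted p of the 10 factors, and those of Hand2 and Mef2a because they hold words of the GATA and MEF2 families. Each is printed 5′ to 3′ on its gene's own strand. Capitals mark the matches.
Tbx20: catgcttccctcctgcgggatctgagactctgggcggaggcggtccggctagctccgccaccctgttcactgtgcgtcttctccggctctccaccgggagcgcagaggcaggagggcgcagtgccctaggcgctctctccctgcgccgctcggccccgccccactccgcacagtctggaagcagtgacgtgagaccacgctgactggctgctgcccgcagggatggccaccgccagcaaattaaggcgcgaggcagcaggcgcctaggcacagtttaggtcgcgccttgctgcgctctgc
Hand2: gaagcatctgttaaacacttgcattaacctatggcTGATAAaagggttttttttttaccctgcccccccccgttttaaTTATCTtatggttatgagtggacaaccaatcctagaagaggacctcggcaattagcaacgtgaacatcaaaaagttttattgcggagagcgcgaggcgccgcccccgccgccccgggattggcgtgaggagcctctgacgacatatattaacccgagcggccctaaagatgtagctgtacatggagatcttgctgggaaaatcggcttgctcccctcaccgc
Mef2a: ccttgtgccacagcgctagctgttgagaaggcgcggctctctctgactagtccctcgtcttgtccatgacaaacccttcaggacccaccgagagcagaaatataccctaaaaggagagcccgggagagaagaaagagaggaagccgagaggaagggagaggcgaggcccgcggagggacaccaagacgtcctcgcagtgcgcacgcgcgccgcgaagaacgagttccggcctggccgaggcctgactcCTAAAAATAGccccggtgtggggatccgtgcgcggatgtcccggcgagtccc
The Tbx20 window lies at chr9:24774254-24774553 on the minus strand and held none of the 6 words. The Hand2 window lies at chr8:57320733-57321032 on the plus strand and held TGATAA beginning 215 bases before the start and AGATAA, read on the other strand, 172 bases before it. Among 32851 RefSeq windows of the same length, TGATAA occurred in 9.05% and AGATAA in 11.2%. The Mef2a window lies at chr7:67372809-67373108 on the minus strand, and its MEF2 word, which occurred in 3.69% of all windows, began 2 bases before the start. TNAAGTG occurred in 11.5%, AGGTGT in 13.7% and CATTCC in 14.7% of all windows. The windows of Nkx2-5, Mef2d and Irx4 held none of these words, and those of Mef2c held AGGTGT once and CATTCC once. A match is a run of letters and does not show that a factor binds there.

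Levels are given as CPM, the reads of a gene scaled to a fixed library total after TMM normalization in edgeR. Libraries held 22309914 to 35210939 counted reads, and the 10 genes took between 292 (Tbx5) and 6615 (Mef2d) reads in a library. The tissue label held against its markers. Myl2, the ventricular myosin light chain, was at 5039 to 7535 CPM in the 14 libraries, while the atrial light chain Myl7 was at 0 to 0.694 CPM in 13 of them. The exception was HCN4F-TAC replicate 2, in which Myl7 was at 9.91 CPM, the atrial light chain Myl4 at 17.4 CPM and the atrial calcium pump regulator Sln at 3.79 CPM. The main results in HCN4F-TAC are therefore also given without that library.

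All 10 factors were detected in each library, at levels that spanned a wide range once divided by transcript length. In WT-Sham hearts Nkx2-5 came first with 59.8 ± 3.52 CPM per kilobase of exon (SD, n = 4). Hand2 (38.7 ± 8.12), Gata4 (25.6 ± 3.03) and Mef2d (25.0 ± 1.18) followed, and the libraries of Hand2 and Gata4, and those of Gata4 and Mef2d, overlapped. Next came Irx4 (10.2 ± 1.56), Gata6 (10.2 ± 0.836) and Mef2a (9.38 ± 1.04), in which each neighbouring pair overlapped. Tbx20 (6.54 ± 0.467), Tbx5 (4.57 ± 0.126) and Mef2c (2.85 ± 0.198) closed the order, each below its predecessor without overlap. Nkx2-5 was first and Mef2c last by group mean in each of the 4 groups, although Mef2c overlapped with Tbx5 in both TAC groups. By group mean Tbx20 stood below Mef2a and Gata6 in both Sham groups and in WT-TAC, and above them in HCN4F-TAC (10.4 ± 1.16 CPM per kilobase). Its libraries overlapped with those of both genes in HCN4F-Sham and in HCN4F-TAC, and with neither in the WT groups.

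**Figure D1:**
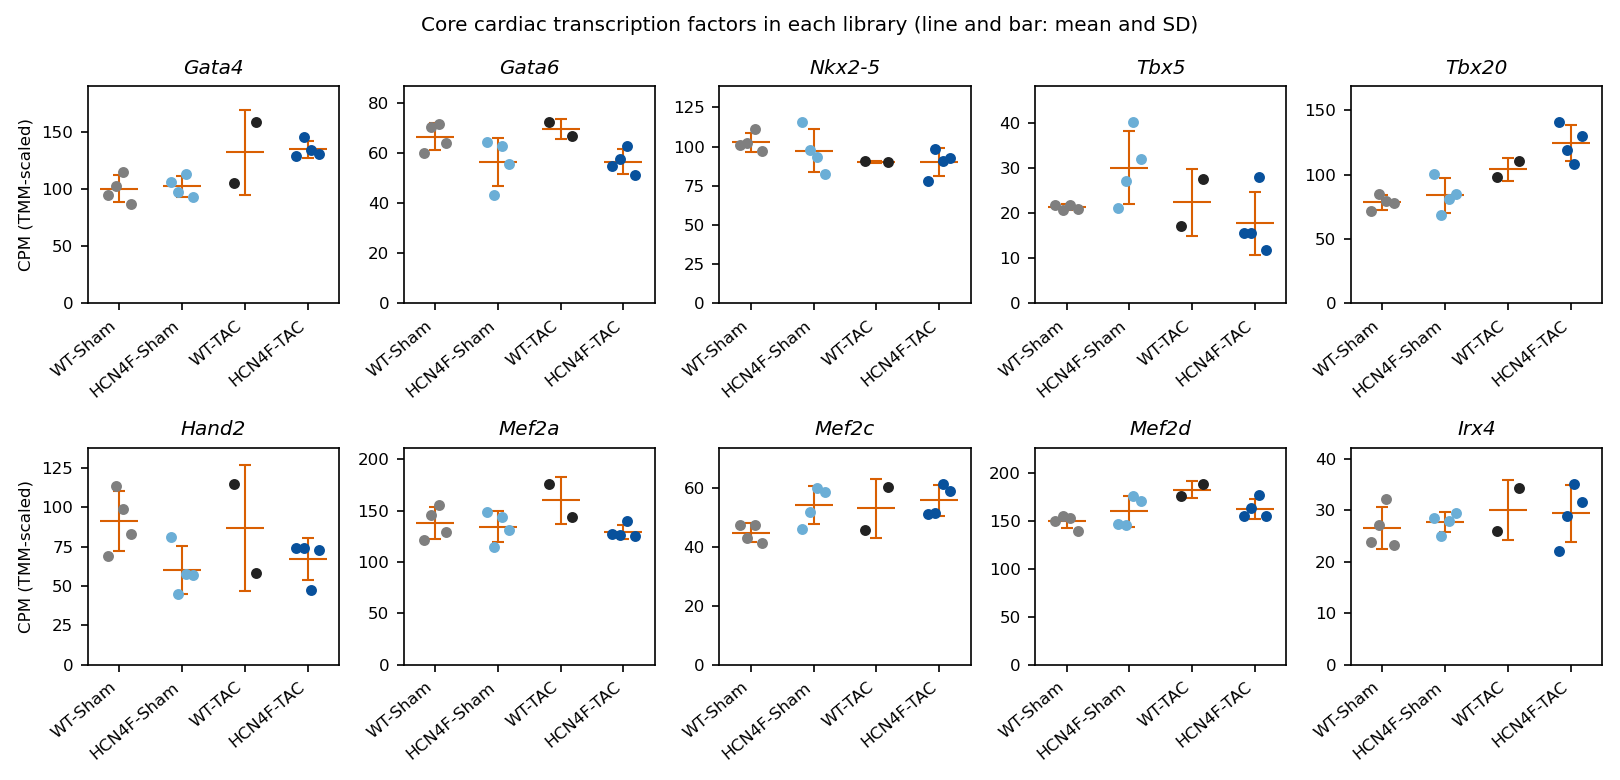
Level of each factor in every library, in CPM on a linear axis from 0, with 1 panel per gene and 1 point per mouse; the orange line and bar are the group mean and SD. The 4 HCN4F-TAC points lie above the 4 HCN4F-Sham points for Tbx20 (108 to 141 against 68.4 to 101 CPM) and Gata4 (129 to 146 against 92.6 to 113 CPM), and the points of Hand2, and of Tbx5 outside WT-Sham, are spread widely within groups.

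Pressure load was compared with Sham surgery within each genotype. In HCN4F hearts 2 of the 10 factors rose after TAC, Tbx20 by 1.48-fold and Gata4 by 1.31-fold, and edgeR on all groups called none lower, while DESeq2 called Tbx5 lower. Across all genes tested by edgeR in this comparison 13.6% were called at an adjusted p under 0.05, 7.2% higher and 6.41% lower. Neither factor reached a log2 fold change of 1, a size passed with that adjusted p by 2.75% of all genes. The median log2 fold change of the 10 factors was 0.03, beside -0.01 for all genes. In left ventricular tissue a change in the number of cells of a type cannot be told apart from a change in RNA per cell.

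Tbx20 (ENSMUSG00000031965, chr9:24718138-24774303 on GRCm38, minus strand) encodes the T-box factor of adult myocyte contractile and ion transport genes. In HCN4F-Sham replicates 1 to 4 it was at 101, 68.4, 81.1 and 85.3 CPM, and in HCN4F-TAC replicates 1 to 4 at 141, 119.5, 108 and 130.1 CPM. The lowest TAC library was above the highest Sham library, an arrangement without overlap that 7.95% of all genes showed in this direction and 7.16% in the other. Its log2 fold change was 0.57 (SE 0.11, 95% interval 0.35 to 0.79, Benjamini-Hochberg adjusted p = 0.00214 in edgeR's quasi-likelihood fit). It was called under each of 15 alternatives, with log2 fold changes from 0.48 to 0.67.

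Gata4 (ENSMUSG00000021944, chr14:63198922-63271692 on GRCm38, minus strand) encodes the zinc finger factor that binds the promoters of Nppa, Nppb and Myh6. It was at 106, 97.7, 113 and 92.6 CPM in HCN4F-Sham replicates 1 to 4 and at 129, 146, 134 and 130.5 CPM in HCN4F-TAC replicates 1 to 4. The groups did not overlap here either, and the 4 TAC libraries lay close together. On the log2 scale the rise was 0.39 (SE 0.11, 95% interval 0.16 to 0.63, adjusted p = 0.0267 in edgeR). The call was lost when HCN4F-Sham replicate 2 (adjusted p = 0.0671 in edgeR), HCN4F-Sham replicate 4 (0.0786) or HCN4F-TAC replicate 2 (0.0849, log2 fold change 0.35) was left out, within a range of 0.000549 to 0.0849 over 15 alternatives. Its paralog Gata6 was level in the same hearts, at 43.1 to 64.4 CPM in HCN4F-Sham and 51.1 to 62.7 CPM in HCN4F-TAC, with a log2 fold change of 0.00 (95% interval -0.22 to 0.23).

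Tbx5 (ENSMUSG00000018263, chr5:119832668-119885219 on GRCm38, plus strand), the other T-box factor, had the largest negative difference of the 10 but did not pass the test. It was at 21.1, 27.1, 40.2 and 32.1 CPM in HCN4F-Sham replicates 1 to 4 and at 15.7, 15.5, 28.0 and 11.9 CPM in HCN4F-TAC replicates 1 to 4. In all, 3 of the 4 TAC libraries were below every Sham library and replicate 3 was not. The log2 fold change was -0.76 (SE 0.26, 95% interval -1.31 to -0.20, adjusted p = 0.0694 in edgeR). Without HCN4F-TAC replicate 3 the log2 fold change was -1.07 with an adjusted p of 0.00364 in edgeR, and without HCN4F-Sham replicate 1 it was -0.90 with an adjusted p of 0.037. DESeq2 called it on all groups (adjusted p = 0.046, beside 15.4% of all genes to which DESeq2 gave an adjusted p, the base of its shares throughout) and on the compared groups (0.0244, beside 11.1%), and over 15 alternatives the adjusted p ranged from 0.00364 to 0.185.

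The remaining 6 factors had log2 fold changes between -0.11 (Nkx2-5) and 0.16 (Hand2) in HCN4F hearts. Intervals were narrow for Mef2d (-0.14 to 0.19), Mef2c (-0.17 to 0.26), Mef2a (-0.26 to 0.15) and Nkx2-5 (-0.31 to 0.09). That of Hand2 ran from -0.37 to 0.69, so that a change of the size seen for Gata4 or Tbx20 was not detectable for it. Irx4 had 0.08 (95% interval -0.20 to 0.37).

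Signs of other cell types moved with this comparison. Of 8 ventricular cardiomyocyte markers, 4 were lower and 1 higher in HCN4F-TAC, beside 13.6% of all genes called. All of these markers but Ttn are also among the targets described below. Of the called markers, only Myl2 and Tnni3 stayed called when HCN4F-Sham replicate 4 or HCN4F-TAC replicate 4 was left out. The summed level of the 8 was 70665 to 78356 CPM in HCN4F-Sham and 57825 to 68392 CPM in HCN4F-TAC. Of 8 fibroblast markers 5 were higher, with summed levels of 792 to 1017 CPM and 998 to 1753 CPM. Of 7 atrial markers 5 were tested, with Nppa higher and Kcnj3 lower, and summed levels of 108 to 179 CPM in HCN4F-Sham and 439 to 1882 CPM in HCN4F-TAC, most of which was Nppa. Their part in the values of Tbx20 and Gata4 was not tested. Without HCN4F-TAC replicate 2, the library with atrial transcripts, Tbx20 was still called (log2 fold change 0.59, adjusted p = 0.00534 in edgeR), Gata4 was not (0.35, adjusted p = 0.0849) and Tbx5 had -0.70 (adjusted p = 0.17), beside 8.73% of all genes called.

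In WT hearts none of the 10 factors was called after TAC by edgeR on all groups, beside 4.54% of all genes (2.92% higher and 1.62% lower). That share was 1.07%, 2.42% and 1.05% without WT-Sham replicate 1, 2 or 4, and 1.11% and 0.0695% without WT-TAC replicate 2 or 3. None passed a log2 fold change of 1 as well, which 0.706% of all genes did. The count at an unadjusted p under 0.05 was 3 (Gata4, Tbx20 and Mef2d), beside 22.0% of all genes. DESeq2 on all groups called 2 factors, Tbx20 and Mef2d, beside 8.76% of all genes, and on the compared groups 3, Gata4 with them, beside 14.1%. Other edgeR fits called Tbx20 and Mef2d (on the compared groups, beside 13.6% of all genes), Gata4 and Tbx20 (no filter, beside 2.92%) or Gata4 alone (without WT-TAC replicate 2). With 2 TAC libraries against 4 Sham libraries, 19.2% of all genes were higher in TAC without overlap and 20.0% lower, and of the 10 factors 2 were higher (Tbx20 and Mef2d) and 1 lower (Nkx2-5) in that way. The median log2 fold change of the 10 was 0.20, beside -0.02 for all genes. Summed cell type markers moved with this comparison without overlap. Lower in WT-TAC were those of ventricular cardiomyocytes (73247 to 74725 against 80935 to 82745 CPM in WT-Sham), smooth muscle (201 to 215 against 289.6 to 409 CPM), macrophages (107.5 to 107.8 against 113 to 134 CPM) and blood (84.7 to 94.3 against 96.7 to 210.4 CPM). Higher were the atrial (230.2 to 286 against 129 to 229 CPM) and mesothelial sums (7.24 to 7.93 against 4.62 to 7.0 CPM). Most of the atrial sum was Nppa (mean 219.4 against 114.8 CPM). Kcnj3 (31.4 against 40.6 CPM) and Gja5 (5.31 against 8.25 CPM) were lower in WT-TAC, and Myl4 and Myl7 overlapped. Most of the mesothelial sum was Wt1 (7.16 to 7.68 against 4.51 to 6.39 CPM). The part of these cell type markers in the values of the factors was not tested.

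Tbx20 was at 71.4, 85.0, 79.8 and 77.7 CPM in WT-Sham replicates 1 to 4 and at 97.8 and 110.3 CPM in WT-TAC replicates 2 and 3. Both TAC libraries lay above the Sham libraries, with a log2 fold change of 0.41 (SE 0.13, 95% interval 0.14 to 0.68, adjusted p = 0.0781 in edgeR, 0.000407 to 0.445 over 13 alternatives). Gata4 was at 95.1, 103, 115 and 87.1 CPM in WT-Sham and at 106 and 158 CPM in WT-TAC. Of these 2 libraries, replicate 2 lay within the Sham range and replicate 3 far above it. Its log2 fold change of 0.40 (SE 0.14, adjusted p = 0.0952 in edgeR) became 0.08 when WT-TAC replicate 3 was left out and 0.66 when replicate 2 was.

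Mef2d (ENSMUSG00000001419, chr3:88142372-88172086 on GRCm38, plus strand), the most abundant MEF2 transcript of these hearts, was at 151, 155, 154 and 139.7 CPM in WT-Sham and at 177 and 189 CPM in WT-TAC. This gave a log2 fold change of 0.29 (SE 0.09, 95% interval 0.09 to 0.49, adjusted p = 0.0871 in edgeR, 0.00358 to 0.449 over 13 alternatives). In HCN4F hearts the 155 to 178 CPM after TAC overlapped with the 147 to 177 CPM after Sham. Nkx2-5, the homeobox factor, was at 97.0 to 111 CPM in WT-Sham and at 90.9 and 90.0 CPM in WT-TAC, with a log2 fold change of -0.18 (SE 0.12, adjusted p = 0.37 in edgeR).

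**Figure D2:**
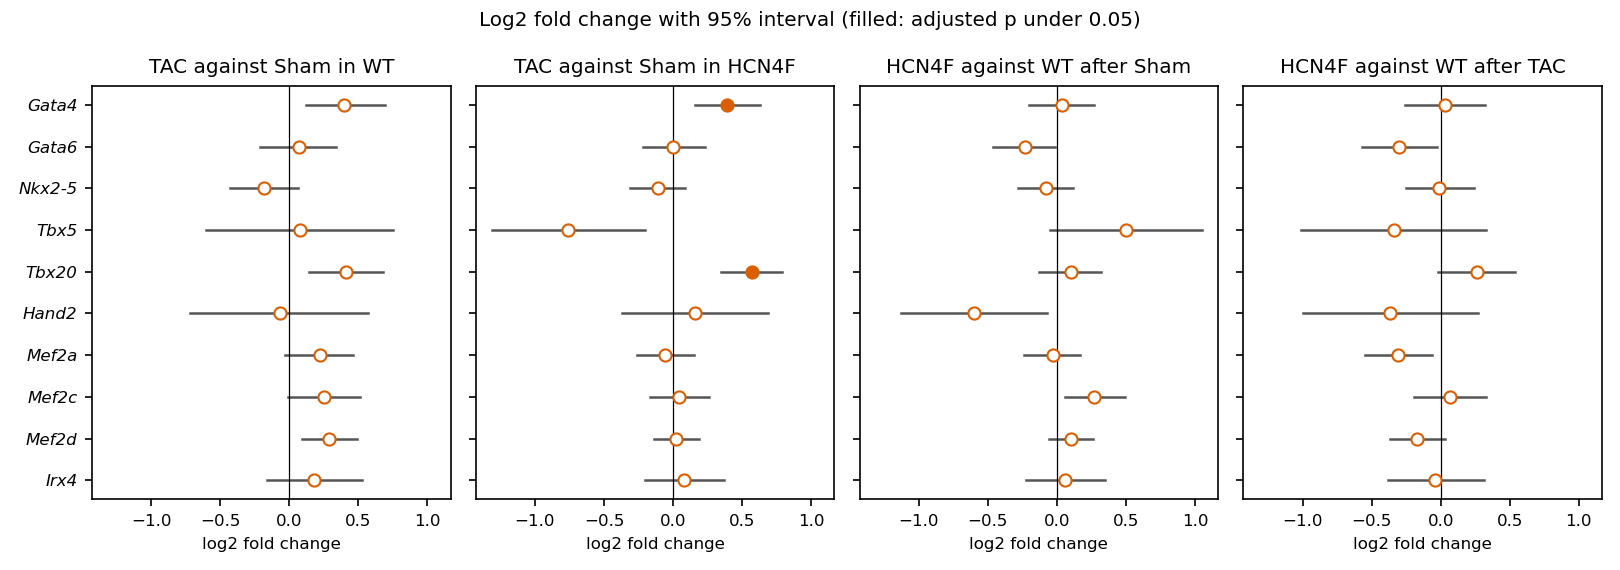
Log2 fold change (points) with its 95% interval (lines) for each factor in 4 comparisons, from edgeR's fit on all groups; filled points had an adjusted p under 0.05. Filled points are those of Tbx20 (0.57) and Gata4 (0.39) in HCN4F hearts, and in WT hearts the same genes stand at 0.41 and 0.40 with wider intervals.

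Whether the response to TAC differed between the genotypes was tested as an interaction. None of the 10 factors was called, in edgeR or in DESeq2 on all groups. DESeq2 called 0.242% of all genes and edgeR 0.0%, while in edgeR 9.27% had an unadjusted p under 0.05. For Tbx20 the response in HCN4F exceeded that in WT by 0.16 on the log2 scale (95% interval -0.19 to 0.52), and for Gata4 the difference was -0.01 (95% interval -0.38 to 0.37). Tbx5 had the largest estimate, -0.84 (95% interval -1.70 to 0.03, adjusted p = 0.549 in edgeR). Only Mef2d had an unadjusted p under 0.05, with -0.27 (95% interval -0.53 to -0.01, adjusted p = 0.52 in edgeR). Without HCN4F-TAC replicate 3 the test called 0.51% of all genes and none of the 10 factors.

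HCN4F was compared with WT after Sham surgery for differences without pressure load. The genotype comparisons rest on the same libraries as the TAC comparisons and are not independent of them. The sum of 8 ventricular cardiomyocyte markers was 70665 to 78356 CPM in HCN4F-Sham and 80935 to 82745 CPM in WT-Sham, without overlap, and its part in the values below was not tested. None of the 10 factors was called, beside 0.471% of all genes in edgeR (0.229% higher and 0.242% lower, and 0.209% past a log2 fold change of 1). Leaving out HCN4F-Sham replicate 1 took that share to 3.72%, and leaving out replicate 3 or 4 of that group to 0.157% and 0.236%. It was 0.125%, 0.144% and 0.164% without WT-Sham replicate 2, 3 or 4, and none of the 10 factors was called in these fits. Of the 10, 3 had an unadjusted p under 0.05 (Hand2, Mef2c and Gata6), beside 15.2% of all genes. DESeq2 called none on all groups, beside 2.26% of all genes, and 1, Hand2, on the compared groups (adjusted p = 0.0334), beside 2.64%. No factor was free of overlap between the 2 groups, an arrangement that 3.89% of all genes showed upward and 4.67% downward.

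Hand2 (ENSMUSG00000038193, chr8:57320983-57324633 on GRCm38, plus strand), the basic helix-loop-helix factor, was at 69.0, 113, 98.7 and 83.1 CPM in WT-Sham and at 80.9, 45.0, 57.7 and 56.8 CPM in HCN4F-Sham. Here 3 of the 4 HCN4F libraries were below every WT library and replicate 1 was not. The log2 fold change was -0.60 (SE 0.24, 95% interval -1.13 to -0.07, adjusted p = 0.275 in edgeR, 0.0334 to 0.502 over 15 alternatives). After TAC it was at 115 and 58.4 CPM in WT and at 74.2, 74.1, 47.2 and 72.6 CPM in HCN4F, with a log2 fold change between genotypes of -0.37 (SE 0.29, adjusted p = 0.661 in edgeR). The antisense gene Hand2os1, listed in the count table as AV026068, shares 461 exonic bases with Hand2, or 19.6% of the exonic length of Hand2. It was at 18.2 to 30.2 CPM, and because the use of strand in counting is not stated, reads of the shared stretch cannot be assigned to either gene with certainty. Its log2 fold change between genotypes was -0.10 after Sham and -0.15 after TAC.

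Tbx5 was almost the same in all WT-Sham libraries, at 21.8, 20.7, 21.9 and 21.0 CPM, whereas HCN4F-Sham ranged from 21.1 to 40.2 CPM. Its log2 fold change between genotypes was 0.50 after Sham (95% interval -0.05 to 1.05, adjusted p = 0.373 in edgeR). After TAC it was at 17.2 and 27.6 CPM in WT and the log2 fold change was -0.34 (95% interval -1.01 to 0.33, adjusted p = 0.713 in edgeR). Mef2c, the MEF2 gene required for looping of the heart tube and for the right ventricle, was at 47.4, 42.9, 47.4 and 41.3 CPM in WT-Sham and at 46.0, 51.6, 60.0 and 58.5 CPM in HCN4F-Sham. Replicate 1 of HCN4F-Sham lay within the WT range and the others above it, for a log2 fold change of 0.27 (SE 0.10, adjusted p = 0.22 in edgeR).

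Gata6 (ENSMUSG00000005836, on chromosome 18), which overlaps in function with Gata4, was at 59.9, 70.4, 71.4 and 64.2 CPM in WT-Sham and at 64.4, 43.1, 62.7 and 55.7 CPM in HCN4F-Sham. HCN4F-Sham replicate 2 was the lowest of all 14 libraries. The log2 fold change was -0.23 (SE 0.11, adjusted p = 0.31 in edgeR) and became -0.13 without that library. Per kilobase, Gata4 stood above Gata6 by a ratio of 2.26 to 2.68 in WT-Sham, 2.75 to 3.78 in HCN4F-Sham, 2.43 to 3.95 in WT-TAC and 3.57 to 4.25 in HCN4F-TAC. HCN4F-Sham replicate 2 also had the highest summed level of 4 mesothelial markers (14.6 CPM, against at most 10.5 CPM in the other groups), and HCN4F-Sham replicate 1, the exception for Hand2, Mef2c and Tbx5, the lowest of 6 endothelial markers (600.5 CPM, against 717.5 CPM or more in the other groups). Their part in these values was not tested. The ratio of Gata4 to Gata6 was computed after the single values were known and was not tested.

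After TAC none of the 10 factors was called between HCN4F and WT, beside 0.111% of all genes in edgeR (0.0589% higher and 0.0523% lower, and 0.0719% past a log2 fold change of 1). That share was 2.97% without HCN4F-TAC replicate 3, 0.072% without HCN4F-TAC replicate 4, and 0.0377% and 0.0505% without WT-TAC replicate 2 or 3, and none of the 10 factors was called in these fits. DESeq2 called none on all groups or on the compared groups, beside 1.59% and 1.13% of all genes, and 2 factors, Mef2a and Gata6, had an unadjusted p under 0.05 in edgeR, beside 12.5% of all genes. Both were lower in HCN4F-TAC without overlap, an arrangement that 11.0% of all genes showed downward and 11.3% upward. Mef2a (ENSMUSG00000030557, chr7:67231163-67372858 on GRCm38, minus strand), the MEF2 gene tied to mitochondrial and sarcomeric upkeep in the adult heart, was at 127, 126, 139 and 125 CPM in HCN4F-TAC and at 176 and 144 CPM in WT-TAC. The log2 fold change was -0.31 (SE 0.12, 95% interval -0.55 to -0.06, adjusted p = 0.289 in edgeR). Gata6 was at 54.9, 57.5, 62.7 and 51.1 CPM in HCN4F-TAC and at 72.3 and 66.8 CPM in WT-TAC, with a log2 fold change of -0.30 (SE 0.13, adjusted p = 0.356 in edgeR). Without HCN4F-TAC replicate 2 these were -0.30 for Mef2a and -0.32 for Gata6, and no factor was called. The value of Mef2a was -0.15 when WT-TAC replicate 2 was left out and -0.44 without WT-TAC replicate 3, and that of Gata6 ranged from -0.35 to -0.24 over 13 alternatives. Markers of other cells moved with this comparison too. The sum of 8 ventricular cardiomyocyte markers was 57825 to 68392 CPM in HCN4F-TAC and 73247 to 74725 CPM in WT-TAC, and that of 8 fibroblast markers 998 to 1753 CPM and 781 to 938 CPM, in both cases without overlap. The atrial sum (7 markers) was 439 to 1882 CPM in HCN4F-TAC and 230.2 to 286 CPM in WT-TAC. The blood sum (4 markers) was 94.8 to 347 CPM and 84.7 to 94.3 CPM, and the nodal sum (5 markers) 26.3 to 32.2 CPM and 32.5 to 34.6 CPM. These sums did not overlap either. Most of the atrial sum was Nppa (410 to 1832 against 195 to 244 CPM). Kcnj3 was lower in HCN4F-TAC (mean 18.9 against 31.4 CPM), and Gja5, Myl4 and Myl7 overlapped. Of the nodal markers Hcn4, the knock-in gene, was lower (mean 6.72 against 12.7 CPM) and Cacna1d overlapped. By mean, Tbx3 (19.8 against 18.4 CPM) and Shox2 (1.28 against 0.824 CPM) were higher in HCN4F-TAC. The part of these cell type markers in the values of Mef2a and Gata6 was not tested. Tbx20, at 108 to 141 CPM in HCN4F-TAC, overlapped with the WT-TAC libraries, and its log2 fold change was 0.26 (95% interval -0.02 to 0.54, adjusted p = 0.429 in edgeR).

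Irx4 and Nkx2-5 differed least between the groups. Irx4 (ENSMUSG00000021604, chr13:73260479-73269608 on GRCm38, plus strand), the ventricular homeobox factor, had group means of 26.6 ± 4.07 (WT-Sham, SD, n = 4), 27.8 ± 1.89 (HCN4F-Sham, n = 4), 30.1 ± 5.91 (WT-TAC, n = 2) and 29.5 ± 5.54 CPM (HCN4F-TAC, n = 4). Nkx2-5 (ENSMUSG00000015579, chr17:26838664-26845009 on GRCm38, minus strand) had 102.8 ± 6.05, 97.5 ± 13.7, 90.5 ± 0.656 and 90.1 ± 8.84 CPM in the same order. The largest log2 fold change of either gene in the 4 comparisons was 0.18 in size, and neither had an unadjusted p under 0.05 in any.

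**Figure D3:**
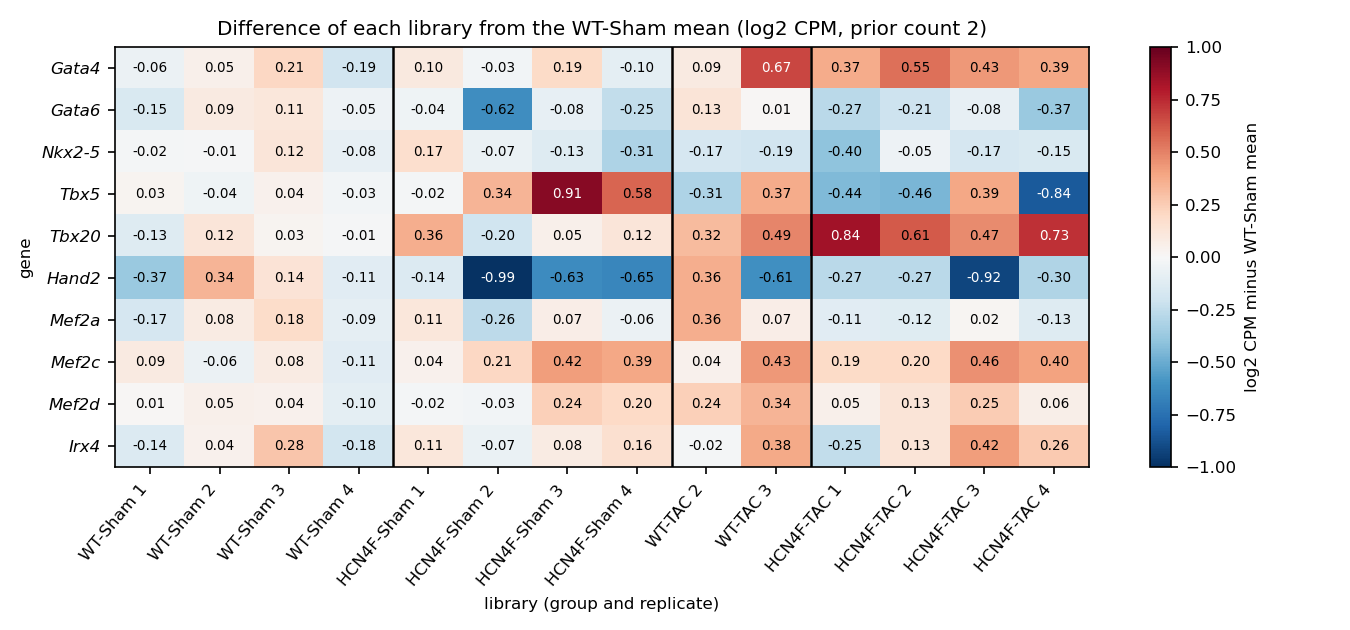
Difference of each library from the WT-Sham mean in log2 CPM (prior count 2), genes in rows and libraries in columns, with the value written in each cell and black lines between groups. The 4 HCN4F-TAC cells of Tbx20 read 0.47 to 0.84 and those of Gata4 0.37 to 0.55, while Hand2 reads -0.99 to -0.14 in HCN4F-Sham and Tbx5 -0.84 to 0.39 in HCN4F-TAC.

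The factors differed in how evenly they were expressed among mice of 1 group. The pooled within-group SD of log2 CPM was 0.39 for Tbx5 and 0.38 for Hand2, the 97.9th and 97.7th percentile among 7364 tested genes of 10 to 200 CPM, whose median was 0.13. That of Irx4 was 0.22, of Gata4 0.18, and of Mef2d 0.10, the 29.0th percentile. Within the MEF2 family Mef2d gave most of the transcripts. Of the summed CPM per kilobase of Mef2a, Mef2c and Mef2d, Mef2d took 65.4% to 69.9% over all libraries, Mef2a 21.6% to 27.0% and Mef2c (ENSMUSG00000005583, chr13:83504034-83667080 on GRCm38, plus strand) 6.57% to 9.79%. The share of Mef2c was 7.08% to 8.27% in WT-Sham, 7.77% to 9.23% in HCN4F-Sham, 6.57% to 8.45% in WT-TAC and 8.37% to 9.79% in HCN4F-TAC. Groups that differ in genotype alone or in surgery alone overlapped. WT-Sham and HCN4F-TAC, which differ in both, did not. These shares were not tested. Exons of Gata6, Mef2a and Mef2d also overlap with a gene on the opposite strand, over 93, 302 and 531 bases.

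The genes whose log2 CPM followed each factor most closely over the 14 libraries were named by Pearson's r, as a description that shares libraries, depth and group differences. Azin1 (r = 0.976) and Gemin5 (0.963) were nearest to Tbx20, and Desi2 (0.944) and Tspan12 (0.939) to Gata4. Immt (0.974) and Adk (0.973) were nearest to Gata6, P2ry1 (0.936) and Slc25a22 (0.909) to Tbx5, and Aff1 (0.940) and Ddit4 (0.935) to Hand2. Pard3 (0.962) and Ank2 (0.944) followed Mef2a, Zbtb1 (0.921) and Carf (0.897) Mef2c, and Usp33 (0.955) and Fam160b1 (0.944) Mef2d. Btrc (0.898) and Gtpbp3 (0.896) were nearest to Nkx2-5. Irx4 had the loosest neighbours, Prox1 (0.848) and Ddx4 (0.844), the second at a mean of only 0.207 CPM.

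The proteins that work with these factors were read from a list of 17 partners, all tested. After TAC 1 rose and 1 fell in WT hearts, and 4 rose and 2 fell in HCN4F hearts, beside 4.54% and 13.6% of all genes called. In WT hearts DESeq2 called Mkl1 higher as well, and when fitted to the compared groups also Smyd1 and Ep300, where it called 8.76% and 14.1% of all genes. Tead1, the DNA-binding partner of YAP, rose in both genotypes, from 143 to 211 mean CPM in WT (log2 fold change 0.56, SE 0.14, adjusted p = 0.0319 in edgeR) and from 157 to 223 in HCN4F (0.51, SE 0.11, adjusted p = 0.00701). Hopx, a homeodomain protein that binds no DNA and restrains serum response factor, fell in both, by 0.51 on the log2 scale in WT (adjusted p = 0.0338 in edgeR) and by 0.49 in HCN4F (adjusted p = 0.00451). Hdac5, a class II histone deacetylase that represses MEF2, fell from 127 to 98.0 mean CPM in HCN4F hearts (log2 fold change -0.37, SE 0.08, adjusted p = 0.0049 in edgeR). The others called in HCN4F hearts were Srf, Smyd1 and Zfpm1, the gene of the GATA cofactor FOG1, all higher. Its paralog Zfpm2 was not called there (log2 fold change -0.18, adjusted p = 0.59 in edgeR). Both DESeq2 fits also called Hdac4, another class II histone deacetylase, lower, and the one to the compared groups did not call Smyd1. Without HCN4F-TAC replicate 2, Tead1, Hopx and Hdac5 were called and Srf, Smyd1 and Zfpm1 were not. Of the 8 fits that left out 1 library of this comparison, 4 lost the call of Srf, 4 that of Smyd1 and 3 that of Zfpm1. In WT hearts the call of Tead1 was lost in 5 and that of Hopx in 6 of the 6 fits that left out 1 library. The median log2 fold change of the list was 0.10 in WT and 0.02 in HCN4F hearts, beside -0.02 and -0.01 for all genes.

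Of 23 further cardiac transcription factors 17 were tested, and edgeR on all groups called none in WT hearts after TAC and 1, lower, in HCN4F hearts, beside 4.54% and 13.6% of all genes. In WT hearts DESeq2 called none on all groups, whereas its fit to the compared groups called Hey1, Irx3 and Irx5 higher and Prdm16 lower, beside 14.1% of all genes. The gene called in HCN4F hearts was Hey2, a Notch-regulated repressor of the ventricle, at 3.12 to 4.77 CPM in HCN4F-Sham and 2.44 to 2.56 CPM in HCN4F-TAC (log2 fold change -0.56, SE 0.14, adjusted p = 0.0144 in edgeR), and it was called in each of the 8 fits without 1 library of this comparison. Among those with too few reads for a test was Isl1, the marker of second heart field and pacemaker cells, which had no read in any library.

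Of 24 known targets of these factors, all tested, 1 rose and 2 fell in WT hearts and 4 rose and 7 fell in HCN4F hearts, beside the same 4.54% and 13.6% of all genes called. With DESeq2 on the compared groups the WT count was 6 higher (Nppb, Atp2a2, Cacna1c, Myh7, Ryr2 and Slc8a1) and 5 lower (Tnnt2, Tnni3, Gja5, Myl2 and Hrc), beside 14.1% of all genes. In HCN4F hearts the lowest adjusted p-values were those of Myh7, the slow myosin heavy chain (log2 fold change 2.46, SE 0.37, adjusted p = 0.00159 in edgeR), Nppa, the atrial natriuretic peptide (3.21, SE 0.48, adjusted p = 0.00164), and Hrc, a calcium-binding protein of the sarcoplasmic reticulum (-0.48, SE 0.09, adjusted p = 0.00201). Myh7 went from 185 to 371 CPM in HCN4F-Sham to 853 to 2965 CPM in HCN4F-TAC, a far wider rise than that of any of the 10 factors. In WT hearts the calcium exchanger gene Slc8a1 rose (0.90, SE 0.21, adjusted p = 0.0314 in edgeR), and the troponins Tnnt2 (-0.39, adjusted p = 0.0257) and Tnni3 (-0.52, adjusted p = 0.0427) fell. Without HCN4F-TAC replicate 2, 3 targets were higher (Nppa, Nppb and Myh7) and 4 lower (Tnnt2, Tnni3, Myl2 and Hrc) in HCN4F hearts, beside 8.73% of all genes. Without HCN4F-Sham replicate 4, and likewise with HCN4F-TAC replicate 4 left out, the same 3 were higher and 3 lower (Tnni3, Myl2 and Hrc), beside 11.5% and 9.96% of all genes. In WT hearts no target was called without WT-Sham replicate 1 or 4 or without either WT-TAC library. The median log2 fold change of the targets was -0.05 in WT and -0.19 in HCN4F hearts. Between the genotypes no partner, further factor or target was called by edgeR on all groups after Sham or after TAC, and none in the interaction. DESeq2 on all groups called Smarcd3 and Actc1 lower and Irx3 higher in HCN4F after Sham, beside 2.26% of all genes, and Nppa and Myh7 higher and Myh6 lower in HCN4F after TAC, beside 1.59%. On the compared groups it called Irx3, Irx5 and Kcnj2 higher and Tnnt2 and Actc1 lower after Sham, beside 2.64% of all genes, and Nppb higher after TAC, beside 1.13%. In edgeR, leaving out HCN4F-Sham replicate 1 brought calls of Smarcd3, Srf and Actc1, all lower, and leaving out HCN4F-TAC replicate 3 calls of Nppa, higher, and Hrc, lower.

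**Figure D4:**
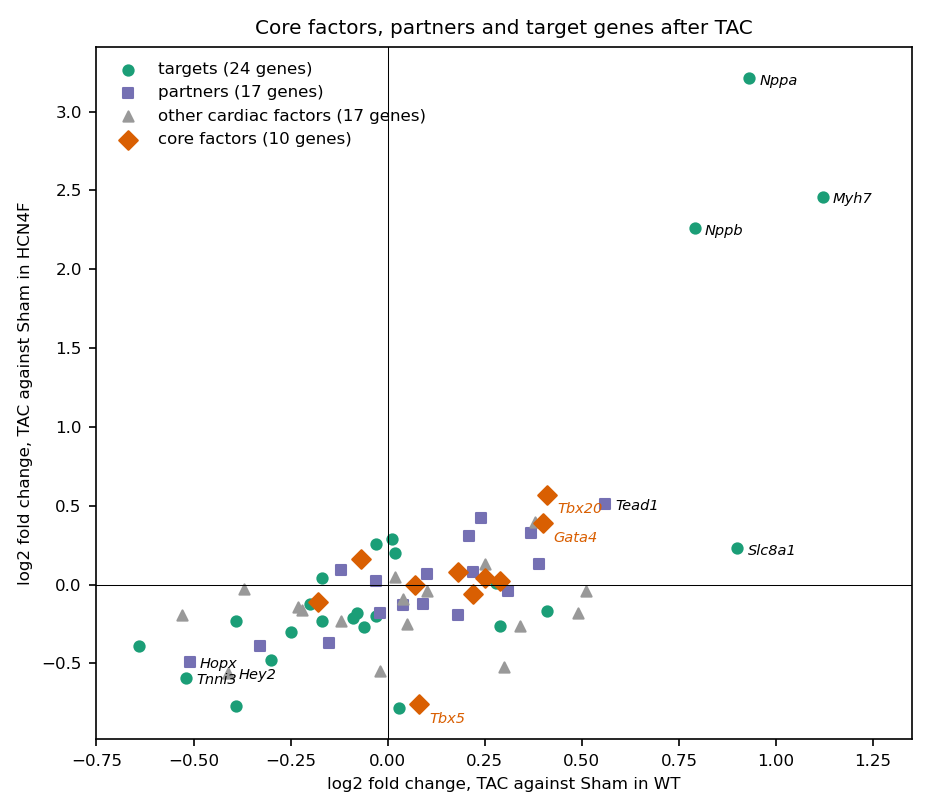
Log2 fold change after TAC in WT (x axis) against that in HCN4F (y axis) for the 10 core factors (orange diamonds), 17 partners, 17 further cardiac factors and 24 targets, with selected genes named. The core factors lie between -0.76 and 0.57 on the y axis, while the targets Nppa, Myh7 and Nppb stand at 3.21, 2.46 and 2.26.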

How the data were processed

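Poly(A)-selected RNA from left ventricles was sequenced on an Illumina platform. The authors deposited raw read counts per gene for each library, not normalized, and the submitters' processing notes name the build GRCm38. Aligner, counting program, annotation and strand setting are not given in the sources used here. Libraries were grouped by their sample labels, which give biological replicates, and 2 more per-sample columns, which matched no listed sample, were not used. Rows without a gene name (174 of 49315) kept their gene ID.

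In R 4.3.3, genes were filtered with filterByExpr in edgeR 4.0.16, scaled with TMM and fitted with 1 mean per group over all 14 libraries. Comparisons used edgeR's robust quasi-likelihood test with Benjamini-Hochberg adjustment over 15292 genes. A gene was called at an adjusted p under 0.05. CPM carry no pseudocount, and log2 CPM per library used a prior count of 2. The study's methods name DESeq2 for these counts, and DESeq2 1.42.0 was run here as an alternative, next to DESeq2's size factors in edgeR, edgeR on the compared groups, no filter or a minimum mean CPM of 1, the replicate number as a block, and each compared library left out in turn. Exon lengths and gene positions came from GENCODE mouse release 21 (GRCm38), which held 99.5% of the IDs. The fits were tested on simulated data. The members, the lists of partners, further factors, targets and markers, and the tests were chosen with earlier results of these data known. All 10 factors are named, with at most 3 genes of each other list and comparison given in full, those of lowest adjusted p. Other genes of these lists are named as called or not, and for each factor the 2 genes of highest Pearson's r. Plots were made with matplotlib 3.10.9 (Python 3.11.15).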

Additional observations from a re-analysis of the deposited data

Results flagged for a closer look

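HCN4F-TAC replicate 3 stood far from the other 3 libraries of its group for 2 factors. Hand2 was at 47.2 CPM there, below 72.6 to 74.2 CPM in the others, and Mef2a was at 139.4 CPM, above 125.2 to 126.9 CPM. In 30 groups of 4 libraries checked (10 factors in 3 groups), chance alone would mark about 1 in 20. The same library was the exception among the HCN4F-TAC libraries for Tbx5, at 28.0 CPM. Without it the log2 fold change after TAC in HCN4F hearts was 0.29 for Hand2 and -0.09 for Mef2a, and neither was called by edgeR.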

How the results depend on the processing

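Of 560 alternative values for the 10 factors in the 4 comparisons, 516 kept the direction and the side of the threshold, 16 newly passed it, 3 lost the call and 25 changed sign. The median of all genes moved by at most 0.026 on the log2 scale under another scaling or filter. In WT hearts after TAC the count of called factors rose from 0 to 2 (DESeq2 on all groups, edgeR on the compared groups, or no filter) and 3 (DESeq2 on the compared groups), and was 0 to 1 with a library left out, 1 being Gata4 without WT-TAC replicate 2. In HCN4F hearts it went from 2 to between 1 and 3 with a library left out, beside 8.73% to 15.6% of all genes. The highest share was that without HCN4F-TAC replicate 3. In these fits 0 to 1 factors passed a log2 fold change of 1 as well (Tbx5 without HCN4F-TAC replicate 3). After Sham it was 1 with DESeq2 on the compared groups (Hand2). With a library left out, log2 fold changes that crossed 0 ranged as follows, none of them called. In WT hearts after TAC they ran from -0.31 to 0.37 for Tbx5, -0.64 to 0.34 for Hand2 and -0.03 to 0.37 for Irx4, and in HCN4F hearts from -0.03 to 0.09 for Mef2c, -0.02 to 0.06 for Mef2d, -0.01 to 0.20 for Irx4 and -0.11 to 0.07 for Gata6 (0.00 with all libraries). Between genotypes after Sham they ran from -0.03 to 0.11 for Gata4 and -0.09 to 0.04 for Mef2a. After TAC they ran from -0.23 to 0.35 for Gata4, -0.06 to 0.06 for Nkx2-5, -0.65 to 0.05 for Tbx5, -0.78 to 0.20 for Hand2, -0.11 to 0.28 for Mef2c and -0.22 to 0.18 for Irx4. The cause of these moves was not tested. Same-numbered libraries did not deviate together (r of -0.12 to 0.159 over 18 pairs, 2 of them over 0.1). Deviations from the group mean cancel within a group, which constrains r. Whether the numbers pair the mice cannot be told from these values. With the replicate number as a block, 3 factors were called in HCN4F hearts (Tbx5 added, adjusted p = 0.0139 in edgeR), beside 12.9% of all genes. In WT hearts the block left 0 called, beside 1.47%. Values that changed sign under the block were those of Tbx5 in WT hearts (-0.13) and, between genotypes after TAC, Nkx2-5 (0.03) and Irx4 (0.04). Where WT-TAC is reduced to 1 library, that library is assumed to vary like the other groups. Each factor had 292 reads or more in each library, and WT-TAC held only 2 libraries.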
